A study of Homo sapiens with 12 samples.

Results

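This comparison sets 4 gefitinib-tolerant single-cell clones of PC9, named D6, E1, E3 and E6, against the gefitinib-sensitive clone B7. It leaves out the fifth tolerant clone, E2. PC9 is an established human lung adenocarcinoma line that depends on a mutant EGFR, and gefitinib is an EGFR kinase inhibitor. The clones were chosen by measured values of these same arrays: E2 was left out because its cell cycle genes lay at the B7 level. The comparison holds 10 of the 12 arrays and 5 of the 6 clones of the series, with 8 arrays for the 4 tolerant clones and 2 for B7. Because cell cycle genes selected the clones, every cell cycle value below is a description and carries no test.

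The study asked which genes differ between clones that tolerate gefitinib and a clone that does not. After single-cell sorting, some plates were given gefitinib and some DMSO, and RNA came from 1 sensitive and 5 tolerant clones picked at random after their sensitivity was measured. All groups, B7 included, carry the same treatment entry, gefitinib at 0.4 to 2 µM over 14 days. It is not stated if B7 itself saw the drug, nor if the drug was present at harvest, so response to the drug and exposure to it cannot be told apart. Each clone stands for 1 founder cell, and B7 is the only sensitive one. No label says that the 2 arrays of a clone came from separate cultures, so the clone was the replicate.

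Levels are log2 intensities of Illumina bead arrays, and 12250 genes were tested, each by 1 probe. Across genes, which are not independent replicates, the correlation between the 2 arrays of each clone was 0.995 to 0.997. The root mean square SD was 0.14 log2 units between arrays of a clone and 0.31 between the 4 tolerant clones. B7 lay at a root mean square distance of 0.822 to 0.967 log2 units from the 4 clones, which lay 0.390 to 0.492 from each other. E2 lay at 0.603 from B7 and at 0.510 to 0.651 from the 4. Overall signal moved with the comparison: the 75th percentile of scanner intensity was 131 units in B7, 80.2 to 104 in the 4 clones and 118 in E2. The arrays were scaled to each other before any test, and the part of this brightness in the results was not tested. Epithelial markers were measured as a check of the line. EPCAM read 13.99 log2 units in B7, 13.12 to 13.55 in the 4 clones and 13.66 in E2. The keratins went the other way between B7 and the 4 clones, with KRT8 at 11.92 against 12.16 to 12.59 and KRT19 at 13.56 against 14.33 to 14.77, and 11.68 and 14.00 in E2. The alveolar protease NAPSA read 5.48 in B7 and 5.80 to 6.34 in the 4.

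Cells commit to division in G1, when cyclin-dependent kinases release E2F factors from the retinoblastoma family. Replication origins are licensed in G1 and fire in S phase, and cells enter and leave mitosis under cyclins A and B and the anaphase-promoting complex. In cells driven by mutant EGFR, signalling through ERK maintains cyclin D1 and so feeds this switch. Many mitotic genes carry a CHR element in the promoter, which the DREAM complex binds in resting cells, and many replication genes carry E2F sites. In bulk RNA, a smaller share of dividing cells and less RNA per dividing cell cannot be told apart.

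To show these elements, the 250 bases upstream of 4 genes described below are given from RefSeq on GRCh38.p14, 5′ to 3′ on the gene's strand. Capitals mark matches on either strand to the CHR (TTTGAA) in CKAP2L and HJURP, to an E2F site (TTTCCCGC or TTTGGCGC) in GINS2, and to the E-box (CACGTG) in the lysosomal gene CTSA. CKAP2L, on the minus strand at chr2:112764610-112764859, and HJURP, on the minus strand at chr2:233854536-233854785, act in mitosis. GINS2, on the minus strand at chr16:85688955-85689204, acts in origin firing, and CTSA lies on the plus strand at chr20:45891085-45891334. They were taken by the size of their difference from B7 among genes of these lists with a single listed start and a match, CTSA among the called ones.
CKAP2L: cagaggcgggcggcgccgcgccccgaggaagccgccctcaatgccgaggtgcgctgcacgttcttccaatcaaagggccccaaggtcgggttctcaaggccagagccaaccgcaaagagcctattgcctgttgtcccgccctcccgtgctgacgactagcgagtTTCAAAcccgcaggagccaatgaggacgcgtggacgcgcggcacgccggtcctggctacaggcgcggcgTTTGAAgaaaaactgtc
HJURP: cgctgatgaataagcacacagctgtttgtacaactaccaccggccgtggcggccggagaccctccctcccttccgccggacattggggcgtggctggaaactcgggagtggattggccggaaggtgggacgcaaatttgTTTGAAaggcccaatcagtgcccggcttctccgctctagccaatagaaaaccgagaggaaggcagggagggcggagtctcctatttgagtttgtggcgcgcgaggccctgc
GINS2: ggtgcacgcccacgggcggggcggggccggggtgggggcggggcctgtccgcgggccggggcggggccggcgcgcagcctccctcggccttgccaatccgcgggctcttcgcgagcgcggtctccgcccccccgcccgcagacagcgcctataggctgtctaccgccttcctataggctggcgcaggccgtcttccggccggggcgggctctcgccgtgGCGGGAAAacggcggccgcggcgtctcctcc
CTSA: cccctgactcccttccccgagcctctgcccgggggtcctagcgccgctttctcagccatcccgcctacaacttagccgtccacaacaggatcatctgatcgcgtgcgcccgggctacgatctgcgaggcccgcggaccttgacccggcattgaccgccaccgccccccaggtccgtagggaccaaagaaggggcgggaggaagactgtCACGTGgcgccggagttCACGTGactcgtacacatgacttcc

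The table of upstream windows held 94 of the 115 measured genes of the 4 mitosis lists, with 117 windows. Of these windows, 47 (40.2%) held TTTGAA on either strand, against 13.3% of all 35116 windows in the table. The licensing and replication lists had 75 windows for 56 of 65 genes, and 18 (24.0%) held one of the E2F motifs, against 1.93% of all windows. In the lysosome list, 10 of 32 windows (31.3%) held CACGTG, against 6.34% of all windows, for 28 of 35 genes. The ribosome biogenesis list, whose called genes were lower than in B7, held it in 5 of 27 windows (18.5%). Outside the cell cycle lists, CACGTG was in 7.08% of windows of genes called higher and 9.04% of those called lower. Over all genes tested the share was 8.09%, so the motif did not go with the direction of the difference. None of these motifs contains another. A match describes these letters only, and no match says nothing of a factor's binding.

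Across the cell cycle lists the 4 clones stood below B7, with E2 close to it. Of 245 listed genes 225 were measured, and 201 of them (89.3%) lay below B7 in all 4 clones, while 5 lay above it. Over all genes tested, 34.9% lay below B7 in all 4. The median over the 225 genes was lowest in D6, at -1.92 log2 units, followed by E1 at -1.41, E3 at -1.22 and E6 at -0.89. In E2 it was -0.09, with 134 genes below and 91 above B7. By this median E6 was thus the included clone nearest to E2. Over all genes E3 was nearest, at a root mean square distance of 0.510 against 0.536 for E6. D6 had 174 genes more than 1 log2 unit below B7, E1 had 161, E3 had 141 and E6 had 96, but E2 had 5.

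**Figure D1:**
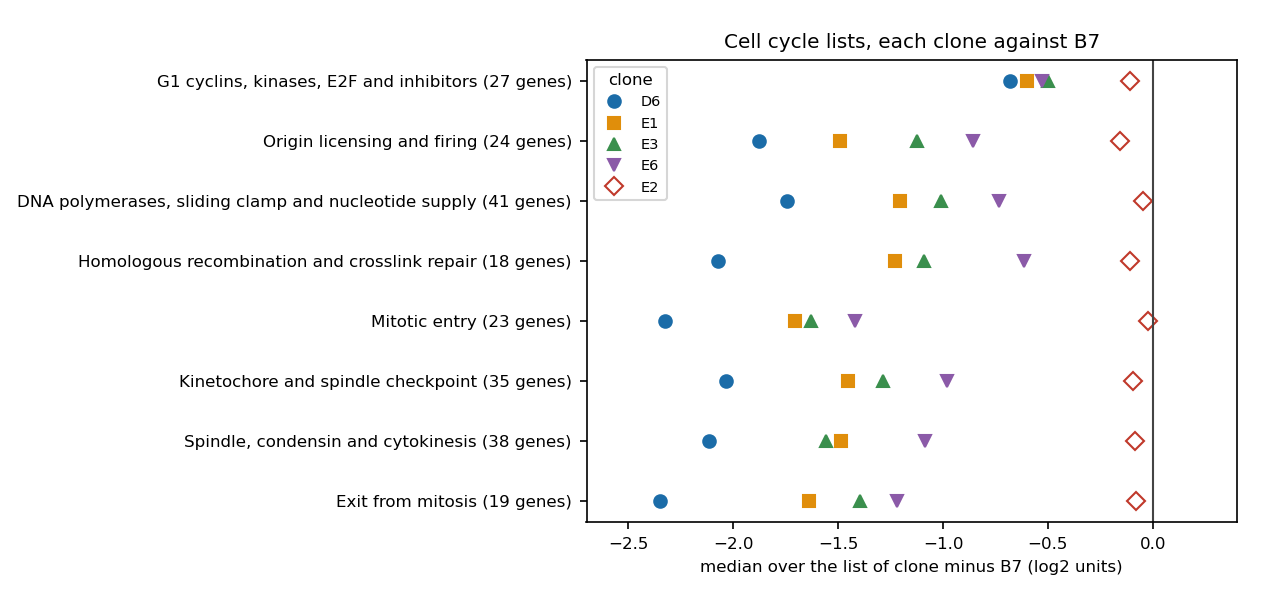
Median difference from B7 (log2 units, horizontal axis) over the measured genes of 8 cell cycle lists (vertical axis) for each tolerant clone. Filled symbols are the 4 clones of the comparison, open diamonds are E2, and the vertical line is B7. In 7 of the 8 lists D6 was lowest and E6 the highest of the 4, while E2 stood between -0.15 and -0.02.

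The clones had an order among themselves. D6 was the lowest of the 4 clones for 172 of the 225 genes and E6 the highest for 173. The order is a description of 4 clones that were selected on these genes. MKI67, the proliferation marker Ki-67, read 7.71 and 7.65 on the B7 arrays, 5.28 and 5.80 in D6, 5.78 and 5.97 in E1, 5.98 and 6.29 in E3, and 6.44 and 6.51 in E6. E2 read 7.30 and 7.12. The B7 and E2 arrays stood above all 8 others, and 4 of those 8 were above the detection limit.

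In G1 the lists held genes on both sides. The median over 27 measured G1 genes was -0.56 log2 units, and -0.11 in E2. CCND1, cyclin D1, read 12.24 and 12.36 in B7, 10.00 and 10.03 in D6, 9.85 and 9.98 in E1, 9.72 and 9.77 in E3, 10.49 and 10.59 in E6, and 11.07 and 10.97 in E2. E2 thus stood between B7 and the other tolerant clones. CDC25A, the phosphatase that activates CDK2, differed from B7 by -2.66 ± 0.54 log2 units (SE, 4 clones against 1).

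The inhibitors of cyclin-dependent kinases did not move together. CDKN2B, which encodes p15 and inhibits CDK4 and CDK6, read 6.48 and 6.26 in B7, 9.44 and 9.37 in D6, 9.06 and 8.87 in E1, 9.48 and 9.58 in E3, and 9.40 and 9.43 in E6. In E2 it read 7.17 and 7.10, close to B7 and below the 8 arrays of the 4 clones. Its difference was 2.96 ± 0.26, and a further probe differed by 1.58. CDKN1A, which encodes p21, read 11.78 and 11.81 in B7, 10.26 and 10.22 in D6, 9.97 and 9.93 in E1, 8.60 and 8.59 in E3, 9.36 and 9.31 in E6, and 8.84 and 8.91 in E2. It was thus below B7 in all tolerant clones, E2 included, and it was the cell cycle gene with the lowest E2 value against B7 (-2.92). The other 4 genes above B7 in all 4 clones were DUT (0.77), RBL2 (0.67), CDKN1B (0.65) and E2F1 (0.29). They encode a nucleotide pyrophosphatase, the pocket protein p130, the inhibitor p27 and an E2F factor.

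Most genes of origin licensing and replication lay below B7, 23 of 24 and 35 of 41 of them in all 4 clones. The median over 24 licensing and firing genes was -1.28 log2 units, with -1.88 in D6 and -0.86 in E6, and -0.15 in E2. GINS2, a subunit of the replicative helicase whose upstream E2F site is shown above, read 11.29 and 11.21 in B7, 8.02 and 7.90 in D6, 8.69 and 8.77 in E1, 9.28 and 9.39 in E3, and 9.79 and 9.93 in E6. E2 read 11.01 and 10.98, just under B7. MCM4 differed by -2.26, CDC45 by -2.08 and MCM2 by -2.06, all parts of the same helicase. Polymerases and nucleotide supply had a median of -1.18 over 41 genes. RRM2, the small subunit of ribonucleotide reductase, differed by -2.75 and TYMS, thymidylate synthase, by -2.13. The maintenance methylation cofactor UHRF1 differed by -2.50 and the histone chaperone ASF1B by -2.02. Repair by homologous recombination had a median of -1.21 over 18 genes, with FANCB at -2.02, BLM at -1.87, CHEK1 at -1.83 and RAD54L at -1.77.

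Mitotic genes had the lowest medians. Mitotic entry stood at -1.68 over 23 genes, kinetochore and checkpoint genes at -1.43 over 35, spindle and cytokinesis genes at -1.54 over 38, and genes of mitotic exit at -1.78 over 19. CCNA2, cyclin A2, read 11.39 and 11.30 in B7, 8.22 and 7.91 in D6, 8.75 and 8.75 in E1, 9.24 and 9.14 in E3, 9.79 and 9.50 in E6, and 11.04 and 10.98 in E2. The arrays of the 4 clones did not overlap those of B7 or E2 for this gene, nor those of each other. CCNA2 belongs to the lists that selected the clones, and 2 arrays of a clone may be technical repeats, so this separation is no result. CDC20, an activator of the anaphase-promoting complex, read 13.21 and 13.12 in B7, 10.43 and 10.42 in D6, 10.98 and 10.94 in E1, 11.15 and 11.25 in E3, 11.37 and 11.53 in E6, and 13.11 and 12.95 in E2. FOXM1, the transcription factor of mitotic genes, differed by -2.42, the kinase AURKB by -2.11 and the spindle assembly factor TPX2 by -2.16.

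The genes with the CHR matches shown above were among the largest differences. CKAP2L, a spindle protein, read 10.06 and 10.15 in B7, 6.22 and 6.21 in D6, 7.26 and 7.30 in E1, 8.16 and 7.99 in E3, 7.66 and 7.51 in E6, and 9.44 and 9.43 in E2. HJURP, the chaperone that loads the centromeric histone, read 10.04 and 10.13 in B7, 7.17 and 6.75 in D6, 7.65 and 7.70 in E1, 7.87 and 7.93 in E3, 8.06 and 8.28 in E6, and 9.63 and 9.53 in E2. Both were lowest in D6 and in E2 lay between B7 and the 4. BIRC5, which encodes survivin, differed by -2.18, SKA1 and MAD2L1 by -2.10 each, KIF4A by -2.62, KIFC1 by -2.35, and LMNB1, lamin B1, by -2.34. Among genes of mitotic exit, TRIP13 differed by -2.33, ESPL1, separase, by -2.13 and CDCA3 by -2.11.

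Over all 12250 genes, with the clone as the replicate, 1045 were higher and 1067 lower in the 4 clones than in B7 at an adjusted p under 0.05 (limma, Benjamini-Hochberg over all genes). These are 8.53% and 8.71% of the genes tested, 17.2% together, and 820 and 757 of them differed by at least 2-fold. Each count of calls in a list below is to be read against these shares. Every one of the 2112 had all 4 clones on the same side of B7. The cell cycle lists supplied 100 of the lower and 1 of the higher genes, CDKN2B, and nothing is read from that share. These genes selected the clones, yet they are part of the counts and shares above. Of the 12025 genes outside those lists 1044 were higher and 967 lower. The split depended on scaling: with median scaling, which moves the median of all genes to -0.23 log2 units, 678 were higher and 2248 lower, so that 23.2% of the calls were higher against 49.5%. With 1 sensitive clone, an exact permutation over 5 clones cannot give a p below 0.2, so the calls rest on the assumption that B7 varies as the others do.

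The number of calls also rested on leaving out E2. With E2 put back, 170 genes were higher and 174 lower, and all 344 were also called without E2, in the same direction. The other 1768 genes were called only without it, 875 higher and 893 lower. The count therefore depends on the choice to drop the clone nearest to B7. Among the included clones, leaving out D6 changed the count most, to 676 higher and 632 lower. Of the 139 calls of genes named by the rule, 45 ended with the authors' processed values and 39 without background correction.

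**Figure D2:**
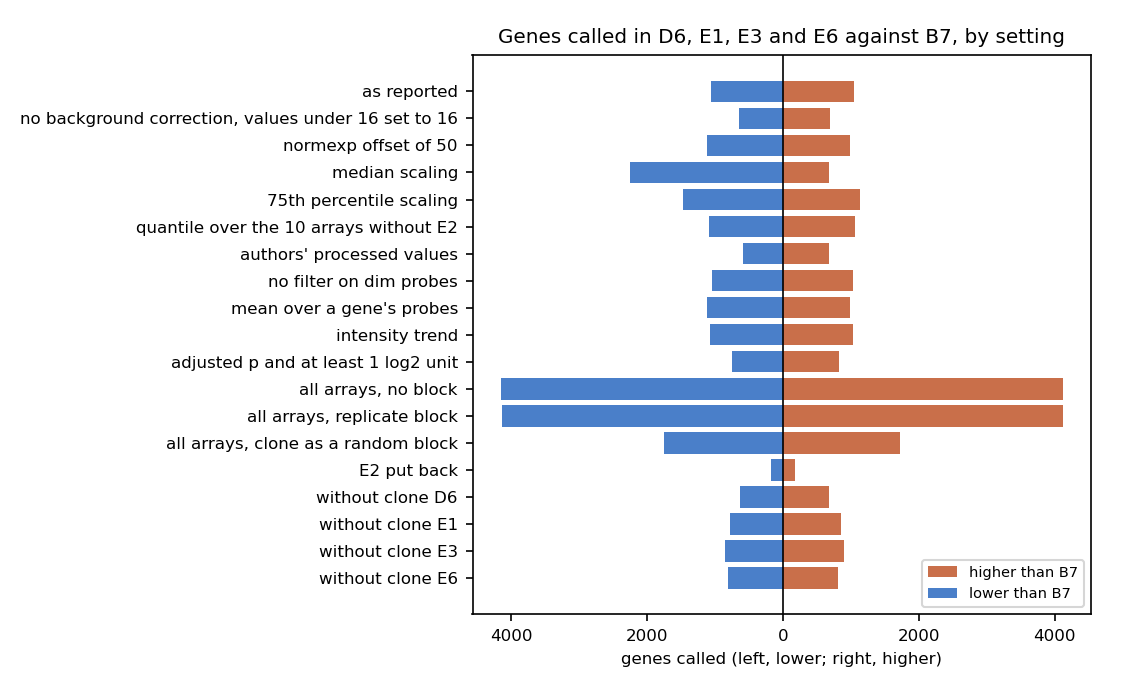
Number of genes called higher (right) and lower (left) in D6, E1, E3 and E6 than in B7 under each setting (vertical axis), at an adjusted p under 0.05. As reported the counts were 1045 and 1067, with E2 put back they were 170 and 174, and with single arrays as replicates they were 4125 and 4160.

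For most called genes E2 lay on the same side of B7 as the 4 clones, with smaller median differences. Outside the cell cycle lists 1044 genes were called higher and 967 lower. For the higher genes the median difference from B7 was 1.36 log2 units in D6, 1.47 in E1, 1.26 in E3, 1.33 in E6 and 0.78 in E2. For the lower genes it was -1.23, -1.26, -1.06 and -1.13 in the same order, and -0.69 in E2. Among the 2011 genes together, E2 stood between B7 and the 4 clones for 1525 (75.8%), within the range of the 4 for 382 (19.0%), and beyond B7 for 51. Over all genes tested the first share was 30.2%. Each of these differences uses the same 2 B7 arrays, so the side on which E2 falls is no independent evidence. The genes were called on the 4 clones and not on E2. That choice favours large and close values in the 4, so the smaller size in E2 is no result either.

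**Figure D3:**
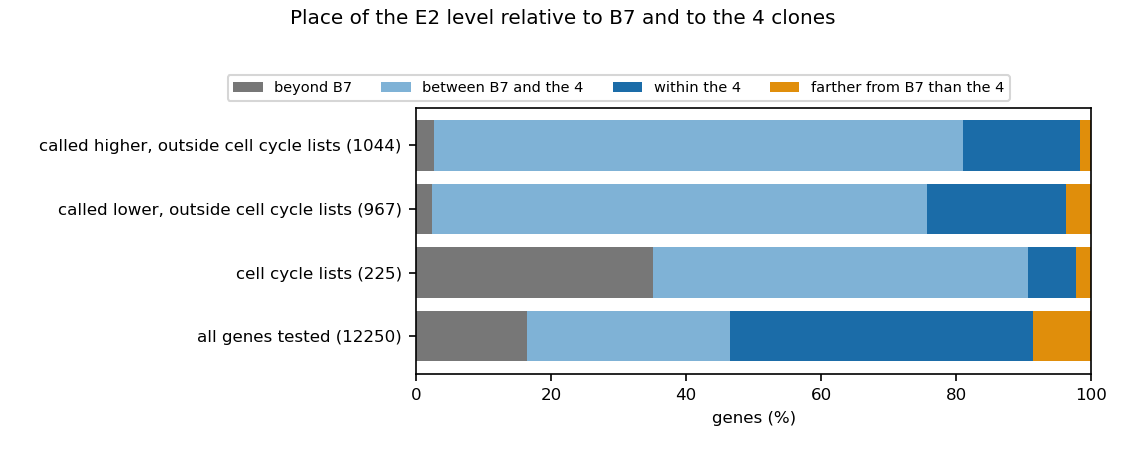
Share of genes (%, horizontal axis) by where the E2 level lay relative to B7 and to the range of D6, E1, E3 and E6, for 4 sets of genes (vertical axis, number of genes in brackets). For called genes outside the cell cycle the largest segment is E2 between B7 and the 4, and for all genes it is E2 within the 4 (44.8%).

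Genes with the largest differences among those called only without E2 included secreted and epithelial products. By construction these are genes for which E2 tends to lie off the 4, so its place is not a result. MUC1, a membrane mucin, read 8.01 and 8.04 in B7, 13.06 and 13.03 in D6, 13.23 and 13.19 in E1, 11.90 and 11.92 in E3, 12.82 and 12.84 in E6, and 10.48 and 10.57 in E2. All 8 arrays stood above B7 and above E2, and the difference was 4.72 ± 0.47 log2 units (adjusted p = 0.00408). Its other probes differed by 4.25 and 2.04. IGFBP5, an insulin-like growth factor binding protein, read 5.26 and 5.27 in B7, below detection, and 11.68 and 11.73 in D6, 11.56 and 11.51 in E1, 12.10 and 12.14 in E3, and 9.51 and 9.39 in E6. E2 read 7.63 and 7.79. It was at least 38.1-fold higher in the 4 clones (adjusted p = 0.0124), with E6 apart from the other 3.

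CLIC3, a chloride channel family member, read 4.81 and 4.67 in B7, 9.76 and 9.80 in D6, 9.22 and 9.34 in E1, 9.05 and 9.29 in E3, 9.29 and 9.35 in E6, and 6.25 and 6.48 in E2. The 4 clones lay close together, and CLIC3 was at least 10.8-fold higher (adjusted p = 0.000989). AGR2, a disulfide isomerase of mucus-secreting cells, was higher by 4.30 ± 0.40 (adjusted p = 0.00338), and its second probe gave 1.23. The matrix protease MMP7 was at least 9.0-fold higher (adjusted p = 0.019) and the F-box family protein NCCRP1 at least 13.4-fold (adjusted p = 0.00112). Their second probes gave 3.75 and 2.09 log2 units. TRIM31, a ubiquitin ligase, was at least 15.6-fold higher and FILIP1L at least 15.4-fold (adjusted p = 0.0239 and 0.00506). Other probes gave 2.25 log2 units for TRIM31 and 3.71 and 3.50 for FILIP1L. CES1, a carboxylesterase, spanned 8.41 in E3 to 12.45 in E6 and was at least 23.8-fold higher (adjusted p = 0.0376), a call lost without D6 (adjusted p = 0.0619) and without E1 (0.0652). The second CES1 probe gave 3.05 log2 units. The glutathione peroxidase GPX2 was higher by 3.76 ± 0.87 (adjusted p = 0.0335), a call lost without E3 (adjusted p = 0.0586). The calls of MMP7, TRIM31, CES1 and GPX2 ended with the authors' processed values. Those of CES1 and GPX2 also ended without background correction.

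Among the genes that fell and were called only without E2, GAL came first. GAL, the neuropeptide galanin, read 10.10 and 10.30 in B7, 5.92 and 5.51 in D6, 6.25 and 6.12 in E1, 5.72 and 6.44 in E3, 5.46 and 5.46 in E6, and 8.60 and 8.58 in E2. It fell by 4.34 ± 0.31 log2 units (adjusted p = 0.00134) to near background, with 3 of the 8 arrays above detection. ODC1, the first enzyme of polyamine synthesis, read 13.13 and 13.25 in B7, 8.76 and 8.79 in D6, 8.30 and 8.11 in E1, 10.00 and 9.87 in E3, 9.24 and 9.25 in E6, and 10.56 and 10.83 in E2. It fell by 4.15 ± 0.58 (adjusted p = 0.00904). The fatty acid binding protein FABP5 fell by 4.31 ± 0.82 and ALOX5AP, the 5-lipoxygenase activating protein, by 3.83 ± 0.87 (adjusted p = 0.0205 and 0.0315). These calls, and those of TMEM158, WNT7A, GNG11, CEMIP and SPANXA2, ended with the authors' processed values and without background correction. The call of ETV5 ended with the authors' processed values. TMEM158, a RAS-induced membrane protein, fell by 3.65, the lipolysis inhibitor G0S2 by 3.51, the ligand WNT7A by 2.95 and the small nucleolar RNA SNORD96A by 3.03. The 12 also held ETV5, described with the ERK genes, CEMIP (-3.25), GNG11 (-2.91) and SPANXA2 (-3.13), whose probe may also bind close copies of the SPANX family. Calls lost without 1 clone were those of CEMIP (without E1 or E6) and SPANXA2 (without E1, E3 or E6).

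**Figure D4:**
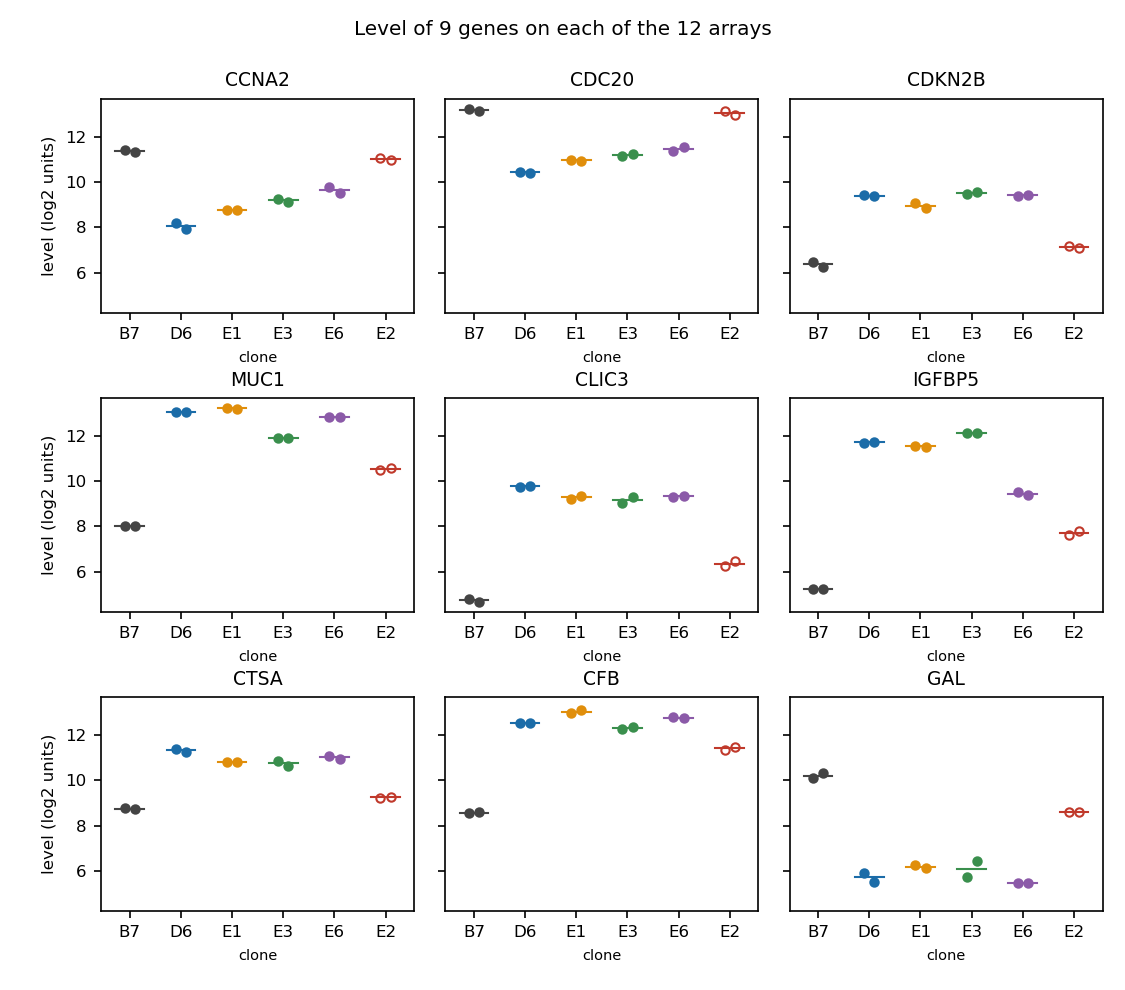
Level (log2 units, vertical axis) of 9 genes on each of the 12 arrays, by clone (horizontal axis). Points are the 2 arrays of a clone, lines their mean, and open points E2. B7 and the 4 clones do not overlap for any of the 9 genes, and E2 lies between them in all 9. All 9 came from the cell cycle lists that selected the clones or from called genes, so neither observation is a result.

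Most of the largest differences of the comparison were also called with E2 in the fit. RARRES1, a retinoid-induced gene, was higher by 7.48 ± 0.53 (adjusted p = 0.00134), and the T-cell inhibitory ligand VTCN1, undetected in B7, was at least 49.3-fold higher (adjusted p = 0.00338). CFD, complement factor D, and the binding protein IGFBP3 were higher by 6.11 and 5.82, and the defensin DEFB1 by 5.58. PLAAT4, an acyltransferase that retinoids induce, exceeded B7 at least 17.6-fold. The scavenger receptor OLR1 had clone means of 10.69 to 11.94 against 6.29 in B7, and UBE2L6, which conjugates ISG15, rose by 4.93. At the other end IL1B fell by 5.61 ± 0.67 and IL1A by 4.72 ± 0.44 (adjusted p = 0.00609 and 0.00338). ACOX2, NTSR1, TERT, COL13A1, MARCHF4, HSD3B1 and IL1RL1 were detected on both B7 arrays and on 0 of the 8, at least 12.4-fold to 19.3-fold lower. Second probes gave smaller differences, -2.54 log2 units for TERT and -2.36 for IL1RL1. IL13RA2 fell by 4.52 and was detected on 1 of the 8.

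Of 16 measured mucin and airway secretory genes 5 rose and 0 fell, against 8.53% of all genes called higher. The 5 include MUC1 and AGR2, described above, and the list had a median of 1.01 log2 units, and 0.09 in E2. WFDC2, a secreted protease inhibitor homologue, read 10.74 and 10.76 in B7, 13.34 and 13.54 in D6, 13.25 and 13.18 in E1, 12.95 and 12.89 in E3, 13.31 and 13.20 in E6, and 11.63 and 11.72 in E2. It rose by 2.46 ± 0.24 (adjusted p = 0.00366), and LCN2, an iron-sequestering lipocalin, by 1.38 ± 0.23 (adjusted p = 0.0154). Both are also in the innate defence list. Of 28 epithelial junction and keratin genes 7 rose and 0 fell, with a median of 0.57, and -0.03 in E2. With E2 put back 0 of them passed limma.

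CLDN1, a tight junction claudin, read 8.37 and 8.34 in B7, 11.04 and 10.89 in D6, 10.45 and 10.54 in E1, 11.45 and 11.64 in E3, 10.96 and 10.98 in E6, and 9.27 and 9.18 in E2. It rose by 2.64 ± 0.37 (adjusted p = 0.00902). CDH1, E-cadherin, read 11.12 and 11.18 in B7 and 11.21 on both E2 arrays, and its means in the other 4 clones ran from 12.02 to 12.58. It rose by 1.10 ± 0.25 (adjusted p = 0.0329), a call lost without D6 (adjusted p = 0.0564), without E6 (0.062) and with median scaling. The junction proteins CGN and JUP rose by 1.38 and 1.14 (adjusted p = 0.0125 and 0.0276), JUP not without E6 (0.0521). Of 20 epithelial transcription factors 6 rose and 0 fell, led by ELF3 (3.61 ± 0.40, adjusted p = 0.00478) and HOPX, undetected in B7 and at least 5.44-fold higher. Squamous genes had 5 higher and 1 lower of 25 and a median of 1.15, with 0.02 in E2. SPRR1A, a cornified envelope precursor, rose by 3.50 ± 0.32, and the keratins KRT16 and KRT5 by 3.15 and 2.36. SFN, the 14-3-3 sigma protein, fell by 1.81 ± 0.20.

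Innate defence genes were among the lists with the largest share of calls. Of 25 measured complement, acute phase and defence genes 12 rose and 0 fell, against 8.53% of all genes called higher. The list median was 1.27 log2 units, and 0.29 in E2. CFB, complement factor B, read 8.56 and 8.58 in B7, 12.51 and 12.50 in D6, 12.94 and 13.07 in E1, 12.25 and 12.33 in E3, 12.77 and 12.75 in E6, and 11.35 and 11.48 in E2, a difference of 4.07 ± 0.29 (adjusted p = 0.00139). C1S, a complement serine protease, rose by 4.24 ± 0.45 (adjusted p = 0.00445), and its second probe gave 3.09. In the interferon list 9 of 32 rose and 0 fell. GBP2, a guanylate-binding protein, had a mean of 7.04 in B7 and read 12.10 and 12.07 in D6, 12.02 and 11.98 in E1, 11.18 and 11.33 in E3, 10.97 and 11.07 in E6, and 9.54 and 9.38 in E2. It rose by 4.55 ± 0.44 (adjusted p = 0.00364), GBP1 by 3.95 ± 0.43 and IFITM2 by 2.25 ± 0.50, the last not without D6 or E6 (adjusted p = 0.0551 and 0.0572).

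Antigen presentation on MHC class I had 11 of 22 genes higher and 0 lower, against 8.53% of all genes called higher. The list median was 1.28 log2 units, and 0.82 in E2. HLA-B read 6.02 and 6.38 in B7, 9.28 and 9.35 in D6, 10.78 and 10.79 in E1, 9.73 and 9.69 in E3, 8.13 and 8.27 in E6, and 8.86 and 9.11 in E2. The clones differed widely, and its call (3.31 ± 0.82, adjusted p = 0.041) was lost without D6 or E3 (0.0659 and 0.0696). HLA probes can bind transcripts of related HLA genes. TAPBPL, a peptide editor, rose by 2.70 ± 0.36 and HLA-F by 2.52 ± 0.56, the latter not without D6 or E3 (0.0521 and 0.053). PSMB9, an immunoproteasome subunit undetected in B7, was at least 3.54-fold higher (adjusted p = 0.0176), and its second probe gave 0.44. Of 4 measured class II genes 1 rose: HLA-DMA, a peptide exchange factor, read 8.22 in E3 to 10.49 in E1 against 6.36 in B7 (3.05 ± 0.74, adjusted p = 0.038), a call lost without D6 or E6 (0.0678 and 0.0644).

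In the list of interleukins, chemokines and NF-kB targets, 4 of 26 rose and 7 fell (42.3%), against 17.2% of all genes called. IL32 rose by 3.35 ± 0.62 (adjusted p = 0.0194). IL11 fell by 2.87 ± 0.55 (adjusted p = 0.021), beside IL1A and IL1B, and for IL11 the E2 mean lay within those of the 4 clones (6.86 against 6.33 to 7.79).

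**Figure D5:**
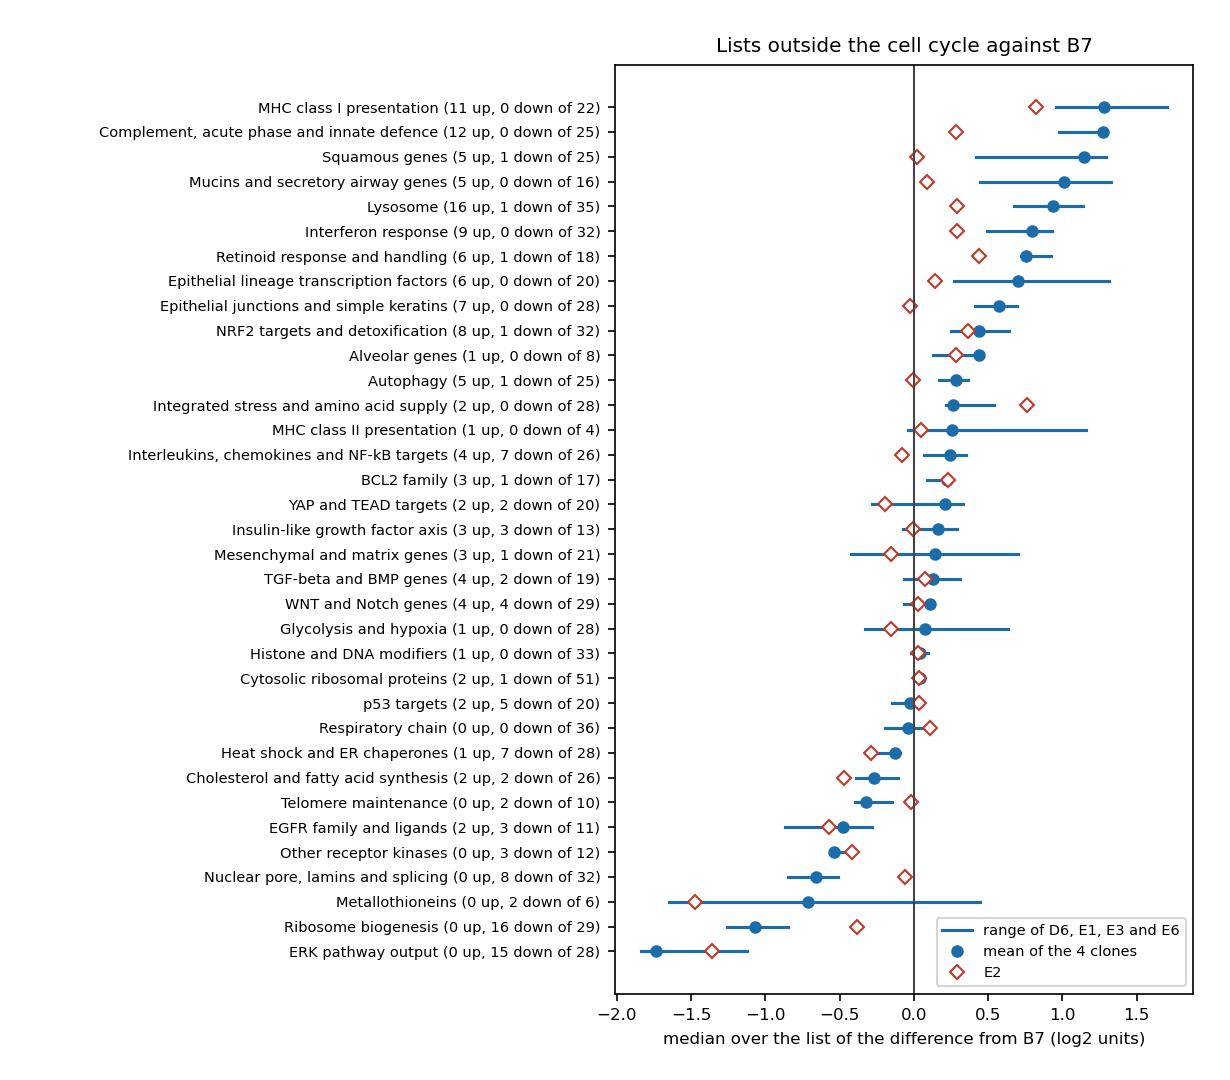
Median difference from B7 (log2 units, horizontal axis) over each of 35 lists outside the cell cycle (vertical axis, with the number of genes called higher and lower of those measured). Points are the median for the mean of the 4 clones, bars the range of the medians of D6, E1, E3 and E6, and open diamonds E2. Ribosome biogenesis (-1.07) and ERK output (-1.73) lie lowest and MHC class I (1.28) and innate defence (1.27) highest. Here the ERK list includes CCND1 and the p53 list CDKN1A.

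Lysosomal genes held more higher calls than the background share. Of 35 lysosome genes 16 rose and 1 fell, with a median of 0.94 log2 units, and 0.29 in E2. The clone medians ran from 0.67 in E3 to 1.14 in E1. CTSA, the protective protein of lysosomal galactosidase whose upstream E-boxes are shown above, read 8.76 and 8.72 in B7, 11.38 and 11.25 in D6, 10.81 and 10.82 in E1, 10.86 and 10.62 in E3, 11.06 and 10.95 in E6, and 9.21 and 9.27 in E2. It rose by 2.23 ± 0.26 (adjusted p = 0.00545), a call that ended with E2 in the fit (0.154). CTSH, a cysteine protease, rose by 4.74 ± 0.25 (adjusted p = 0.000839), PSAP, the precursor of sphingolipid activators, by 1.76 ± 0.26 (0.0113) and the thioesterase PPT1 by 1.67 ± 0.28 (0.0149). With E2 put back 4 of the 35 rose. Of 25 autophagy genes 5 rose and 1 fell (24%), against 17.2% of all genes. GABARAPL1 and GABARAP, which coat autophagosomes, rose by 2.39 and 1.38, and the receptor OPTN by 1.74. ATG16L1, which guides lipidation of those proteins, fell by 1.71 ± 0.19 (adjusted p = 0.00467). The autophagy list's median was 0.29, and it turned to -0.13 with median scaling.

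Genes that build ribosomes were mostly lower. Of 29 ribosome biogenesis genes 16 fell and 0 rose, against 8.71% of all genes called lower, and 28 lay below B7 in all 4 clones. The median was -1.07 log2 units, with -0.38 in E2. BOP1, a processing factor of the large subunit, read 12.67 and 12.70 in B7, 10.15 and 10.18 in D6, 10.19 and 10.02 in E1, 10.91 and 11.03 in E3, 10.59 and 10.67 in E6, with a mean of 11.93 in E2. It fell by 2.22 ± 0.35 (adjusted p = 0.0132). NOP56, a core protein of box C/D particles, fell by 1.94 ± 0.41, NOLC1 by 1.72 ± 0.40 and the methyltransferase NOP2 by 1.51 ± 0.31. The calls of NOP56 and NOLC1 were lost without D6 (adjusted p = 0.0515 and 0.0552). With E2 put back 1 of the 29 fell.

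The ribosomal proteins themselves did not follow. Of 51 cytosolic ribosomal protein genes 2 rose and 1 fell, with a median of 0.04. RPS7 fell by 1.45 ± 0.24 (adjusted p = 0.0145), while RPL28 and RPL22 rose by 0.97 and 0.88, calls that were lost with median scaling and without D6, E3 or E6. Of 32 nuclear pore, lamin and splicing genes 8 fell and 0 rose, against 8.71% of all genes called lower. Their median was -0.66, and -0.06 in E2. The pore protein NUP188 fell by 2.07 ± 0.21 and RANBP1, a regulator of the transport GTPase RAN, by 1.46 ± 0.29 (adjusted p = 0.00423 and 0.0235). NUP205 and NUP153 fell by 1.26 and 1.06, calls lost without D6, E1 or E3. In the telomere list TERT and DKC1 fell among 10 genes, and DKC1, also counted under ribosome biogenesis, lost its call without D6 (0.058).

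Chaperones were split. Of 28 heat shock and ER chaperone genes 7 fell and 1 rose (28.6%), against 17.2% of all genes called. The cochaperone BAG3 fell by 1.71 ± 0.20, HSPA8 by 1.34 ± 0.21 and HSP90AB1 by 1.17 ± 0.18 (adjusted p = 0.00539, 0.0121 and 0.0117). The small heat shock protein HSPB8, a partner of BAG3, was undetected in B7 and at least 6.74-fold higher (adjusted p = 0.00423), at 8.22 to 8.99 in the 4 clones and 6.96 in E2.

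Of 28 measured genes that report ERK activity, 21 stood below B7 in all 4 clones and 3 above it in all 4, and 24 stood below B7 in E2. The list shares CCND1 with the cell cycle lists. Of the 27 others 14 fell and 0 rose, against 8.71% of all genes called lower, with a median of -1.72 log2 units and of -1.37 in E2. The medians of the single clones were taken over all 28 genes, CCND1 included. They did not follow the order of the cell cycle lists, since D6 had the smallest (-1.12) and E3 the largest (-1.83). DUSP6, an ERK phosphatase, read 11.19 and 11.17 in B7, 6.98 and 7.16 in D6, 6.58 and 6.64 in E1, 6.88 and 6.68 in E3, 6.85 and 6.88 in E6, and 8.58 and 8.43 in E2. It fell by 4.35 ± 0.23 (adjusted p = 0.000839). SPRY4, a feedback inhibitor undetected in the 4 clones, was at least 16.1-fold lower (adjusted p = 0.000655), and FOSL1, an AP-1 factor, fell by 3.23 ± 0.19. The second probes of DUSP6 and SPRY4 gave -3.43 and -1.61 log2 units. ETV5, an ETS factor, fell by 3.52 ± 0.49 (adjusted p = 0.00895) to 5.50 to 6.95, against 8.14 in E2, and was called only without E2.

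In the EGFR family 2 of 11 measured receptors and ligands rose and 3 fell (45.5%), against 17.2% of all genes called. ERBB3, a receptor that signals through partners, rose by 1.80 ± 0.18 (adjusted p = 0.00427), with 0.31 and 0.22 at its other probes. ERBB2, its main partner, rose by 1.36 ± 0.20 (adjusted p = 0.0101), with -0.06 at its other, dim probe, and lost the call with the mean over probes. The ligand HBEGF fell by 3.55 ± 0.51 (adjusted p = 0.0101). NRG1, undetected in the 4 clones, was at least 1.33-fold lower (adjusted p = 0.0308). Its call ended when D6, E1 or E6 was left out, and without the filter on dim probes its difference was 0.21 (adjusted p = 0.608). EGFR itself read 10.40 and 10.45 in B7, 10.16 and 10.12 in D6, 11.15 and 11.22 in E1, a mean of 8.88 in E3, 8.61 and 8.64 in E6, and 9.47 and 9.53 in E2. B7 lay inside the range of the 4 clones, and the difference of -0.72 ± 0.91 did not pass (adjusted p = 0.636). The other EGFR probes gave -0.19 and -1.57, so the size depends on the probe.

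Of 12 other receptor kinases measured 3 fell and 0 rose, against 8.71% of all genes called lower. MET differed by -0.35 ± 0.18 and AXL by -0.85 ± 0.44 (adjusted p = 0.207 and 0.229). The 3 that passed were TYRO3, FGFR4 and MST1R. TYRO3 fell by 0.94 and MST1R by 0.72, and FGFR4, undetected in the 4 clones, was at least 1.24-fold lower. TYRO3 lost the call without D6, E1 or E6, and the other two without any 1 of the 4 clones.

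Among BCL2 family genes 3 of 17 rose and 1 fell (23.5%), near the 17.2% of all genes called in either direction. BMF, a BH3-only protein, read 6.13 and 6.11 in B7, 9.23 and 9.58 in D6, 8.90 and 9.12 in E1, 9.23 and 9.17 in E3, 9.21 and 9.26 in E6, and 7.60 and 7.98 in E2. It rose by 3.10 ± 0.21 (adjusted p = 0.00124), and BIK, another BH3-only protein, by 1.35 ± 0.22 (adjusted p = 0.0137). BID rose by 0.96 ± 0.24 (adjusted p = 0.0429), a call lost without any 1 of the 4 clones. BCL2L1, which encodes the survival protein BCL-XL, fell by 1.46 ± 0.18 (adjusted p = 0.00653). BCL2L11, which encodes BIM, differed by -0.18 ± 0.25 (adjusted p = 0.674). Of 20 p53 target genes 1, CDKN1A, is also a cell cycle gene and is left out of the count. Of the other 19 genes 2 rose and 4 fell, against 17.2% of all genes called in either direction. AEN differed by -1.82 ± 0.25 and GDF15 by -1.53 ± 0.31. PLK2 rose by 1.40 ± 0.30 (adjusted p = 0.0264), but not without E6 (0.0511).

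Retinoid genes had 6 of 18 higher and 1 lower (38.9%), against 17.2% of all genes called. The list median was 0.76 log2 units, and 0.44 in E2. Besides RARRES1 and PLAAT4, the retinoic acid carrier CRABP2 rose by 2.48 ± 0.26 (adjusted p = 0.00432). TGM2, a transglutaminase that is itself induced by retinoids, fell by 2.49 ± 0.56 (adjusted p = 0.0315), but not without E1 or E6 (0.0508 and 0.0595). Of 32 genes in a list of NRF2 targets and detoxification genes 8 rose and 1 fell (28.1%), against the same 17.2%. The 1 that fell was SRXN1 (-0.85). UGT1A6 rose by 3.76 ± 0.23, the aldehyde dehydrogenase ALDH3A1 by 3.61 ± 0.35 and the aldo-keto reductase AKR1B10 by 2.55 ± 0.34 (adjusted p = 0.00106, 0.00366 and 0.00816). The UGT1A6 probes can bind other UGT1A transcripts. In the stress list 2 of 28 rose, JDP2 by 2.24 ± 0.24 and VLDLR by 2.08 ± 0.48 (not without D6 or E6). E2 had a higher median (0.76) than the mean of the 4 clones (0.27).

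Growth factor and matrix lists are read against 17.2% of all genes called in either direction. In the insulin-like growth factor axis 3 of 13 rose and 3 fell: the protease PAPPA fell by 2.26 ± 0.20 and its substrate IGFBP4 by 2.05 ± 0.32 (adjusted p = 0.00297 and 0.0126), while IGFBP3 and IGFBP5 rose as above. Of 19 TGF-beta and BMP genes 4 rose and 2 fell, with the decoy receptor BAMBI at 2.93 ± 0.42, INHBB at 2.32 ± 0.32, SMAD6 at 1.74 ± 0.44 (not without D6 or E3) and the antagonist NOG at -2.20 ± 0.38. Of 29 WNT and Notch genes 4 rose and 4 fell. WNT4 and WNT5A, undetected in B7, were at least 5.07-fold and 5.47-fold higher, and NOTCH3 rose by 1.51 ± 0.24. The YAP list had 2 higher and 2 lower of 20 (20%), near the background, with ANKRD1 at least 2.17-fold higher and NT5E, a surface nucleotidase, at -2.15 ± 0.27.

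Of 21 mesenchymal and matrix genes 3 rose and 1 fell (19.0%), near the 17.2% of all genes, and the clone medians ran from -0.42 in E6 to 0.70 in E1. TAGLN, an actin-binding protein, rose by 3.41 ± 0.67 (adjusted p = 0.0227), from 8.49 in B7 to 12.19 to 12.46 in D6, E1 and E3 and 10.62 in E6. TPM1 rose by 1.48 ± 0.20, and COL1A1 by 1.80 ± 0.48 (adjusted p = 0.0493), a call lost without D6, E1 or E3. MMP1, undetected in the 4, was at least 2.40-fold lower. VIM differed by -0.18 ± 0.46 (adjusted p = 0.827).

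The respiratory chain had 0 of 36 genes called by limma, with a median of -0.04. Its largest values were those of CYC1 (-0.93 ± 0.30, adjusted p = 0.078) and ATP5F1B (-0.52 ± 0.20, 0.125). Glycolysis and hypoxia genes had 1 of 28 higher, BNIP3L (1.29 ± 0.33, adjusted p = 0.0443), a call lost without D6, E1 or E6. The list split the clones, with a median of 0.53 in D6 and 0.63 in E1 but of -0.33 in E3 and -0.21 in E6. Of 26 sterol and fatty acid genes 2 rose and 2 fell (15.4%), near the 17.2% of all genes called. TM7SF2, a sterol reductase, rose by 2.66 ± 0.25 (adjusted p = 0.00338) and SC5D by 1.11 ± 0.22, while FASN fell by 0.88 ± 0.23 and ACLY by 0.75 ± 0.18. The call of FASN was lost without D6, E1 or E3, that of ACLY without any 1 of the 4 clones, and that of SC5D with median scaling. Of 33 histone and DNA modifiers 1 rose, the H3K4 demethylase KDM5B (1.59 ± 0.31, adjusted p = 0.0219), with clone means of 9.65 to 10.36 against 8.46 in B7 and 9.09 in E2. Of 6 metallothioneins MT1G fell by 3.02 ± 0.57 and MT1E by 0.90 ± 0.23, the first to near background and the second not without D6, E3 or E6. Of 8 alveolar genes 1 rose, HOPX.

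E2 was also set directly against the 4 clones in the same fit. No gene passed (0 of 12250, 0% called by limma, with the smallest adjusted p at 0.0883), and 1952 had an unadjusted p under 0.05. Outside the cell cycle lists, the largest positive values of E2 minus the 4 were those of ALOX5AP (3.07 ± 0.87), LTB (2.87 ± 0.48), FABP5 (2.86 ± 0.82), GAL (2.73 ± 0.31), CDCA7 (2.16 ± 0.66) and TEX19 (2.15 ± 0.78). LTB, the ligand lymphotoxin beta, read 9.53 and 9.59 in E2, 5.95 to 7.58 on the 8 arrays of the 4 and 5.97 on average in B7, so that E2 stood alone. The lowest were IGFBP5 (-3.49 ± 0.92), CLIC3 (-3.02 ± 0.27), PLA2G10 (-3.00 ± 0.67), MUC16 (-2.97 ± 1.23) and SPRR3 (-2.88 ± 1.03). BCAS1 was undetected in E2 and had means of 7.40 to 8.96 in the 4. The smallest adjusted p, 0.0883, was that of CLIC3 and of BNIPL (-2.15), which was picked here for that p.

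The 4 clones also differed from each other. A moderated F test over their 8 arrays called 7726 genes (63.1%), 1452 of them among the 2112 called against B7. That test measures clones against the spread of 2 arrays, which may be technical. The largest range was that of ACTG2, a smooth muscle actin, which read 11.13 and 11.10 in D6, 14.11 and 14.07 in E1, 11.16 and 11.12 in E3, and 8.42 and 8.60 in E6, against 7.36 and 7.43 in B7. EEF1A2, an elongation factor, was lowest in E3 (5.90 and 6.14) against 9.68 to 11.29 in the other 3 clones. The keratin KRT13 was likewise lowest in E3 (6.21 and 5.94, against 8.25 to 10.31). VCX, VCX2 and VCX3B, near-identical X-linked copies that these probes may not tell apart, had clone means of 7.71 to 9.41 in E3 and 11.09 to 13.51 in the others. None of these 6 genes passed limma against B7. Their adjusted p ran from 0.153 for KRT13 to 0.769 for EEF1A2.

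Markers of other cell types were measured as a check of the line. Of 9 T and NK cell markers with a probe 1 was detected on any array (CD2), and the T-cell genes CD3D, CD3E and CD8A were dim on all 12. Of 9 fibroblast markers 2 were detected (COL1A1 and DCN), of 6 endothelial markers 3, of 5 B-cell markers 4 and of 8 macrophage markers 7, including CD68 and LYZ. Summed macrophage marker intensity was 1607 to 1734 units in B7 and 1743 to 3444 on the arrays of the 4 clones, and its part in the results was not tested.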

How the data were processed

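RNA of 6 PC9 clones was hybridised to Illumina bead arrays, 2 per clone. The deposited scanner table holds intensity values of 47229 probes, of which 26.6 to 28.4% per array lie below 0 so background had been subtracted before deposit. The deposited table of the authors' processed values is also on an intensity scale, with a lowest value of 20, and its normalization is not given in the sources used here. The detection p columns hold no values, so the noise of each array was taken from its values below 0 and the detection limit set at 2.33 times that noise, which differs from the planned use of those columns.

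Intensities were corrected with normexp (offset 16), quantile normalized over 12 arrays and taken to log2. A probe was kept where both arrays of at least 1 clone were detected (21912 probes). The brightest kept probe stood for a gene, 12250 in all. Of the probes, 30112 had 1 gene, 8 several and 17109 none. Symbols came from the platform annotation, updated through RefSeq for 30073 probes. The number of arrays limits the precision.

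Clone means were fitted with limma 3.58.1 in R 4.3.3 (residual df 3, two-sided, Benjamini-Hochberg over all genes, threshold 0.05), with E2 as a group of its own. "At least" folds set the mean of the bright group against, per array, the higher of the lowest detected signal and the dim probe itself. They hold for the probe used and not for a gene's other probes. The 4 promoters printed lie outside sex chromosomes. Array numbers did not pair samples: over 15 pairs of clones the correlation of their replicate differences was -0.02 to 0.05. Genes named are the 10 highest and 10 lowest called, the 12 highest and 12 lowest called only without E2, up to 4 per list, the 6 highest and 6 lowest for E2 against the 4, the 6 of largest range among the 4, and EGFR, MET, AXL, BCL2L11, VIM, CDH1 and MKI67. The test was tried on simulated data in which B7 varied as the 4 clones did. That trial could not check this assumption, on which the calls rest. The comparison, its clones, the lists and these rules were chosen with earlier results of these data known.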

Additional observations from a re-analysis of the deposited data

Results flagged for a closer look

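Among 234 sets of values over the 4 clones, 8 had 1 clone far from the other 3, where chance gives about 1 in 20. ALOX5AP was low in E6 (7.07 log2 units), TAGLN was low in E6 (10.62) and AXL was low in E6 (8.86). FOSL1 was high in E3 (6.31) and CGN low in E3 (10.39), while PSMB9 was high in E1 (8.52). The median of the MHC class II list was high in E1 (1.16) and that of the innate defence list low in E3 (0.98).

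For CDC45 and CDCA3, E2 lay above B7 (0.020 and 0.041 log2 units) while all 4 other clones lay below it. They are not exceptions: E2 lay on the far side of B7 from the 4 clones for 79 of 225 cell cycle genes (35.1%). These genes belong to the lists that selected the clones, and the difference was not tested.

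Among 5492 kept probes without a single assigned gene, which entered no comparison, 50 were detected on all 8 arrays of the 4 clones and on 0 of the 2 B7 arrays. The reverse held for 79.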

How the results depend on the processing

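As reported, 1045 genes were higher and 1067 lower. Without background correction the counts were 696 and 643, with the authors' processed values 675 and 595, with median scaling 678 and 2248, and with E2 put back 170 and 174. With single arrays as samples they were 4125 and 4160, with the clone as a random block 1729 and 1748, and with the replicate block 4125 and 4147, although the array numbers did not pair the samples. Leaving out 1 clone or 1 array gave 676 to 1077 higher and 632 to 1106 lower, and 0 for E2 against the 4, which was 1 with median scaling. Leaving out 1 whole clone gave 5968 to 6884 genes differing among the others. With median scaling list medians changed sign for glycolysis (-0.14), autophagy (-0.13), mesenchymal genes (-0.041), YAP (-0.12), the insulin-like growth factor axis (-0.11), TGF-beta (-0.036), WNT and Notch (-0.15), the BCL2 family (-0.20) and histone modifiers (-0.19). Without the filter on dim probes NRG1 was 0.21 and MHC class II -0.011. The p53 list with CDKN1A had a median of -0.028, and without that cell cycle gene 0.056, so its sign rested on CDKN1A. With CDKN1A it was 0.056 without the filter on dim probes and 0.0076 with E2 put back. Leaving out 1 clone or array, the glycolysis median ran from -0.11 to 0.29. The p53 median with CDKN1A ran from -0.12 to 0.023. The cause of these changes was not tested. Of 139 named genes called, 53 passed under each of 28 alternatives. With 1 sensitive clone, its spread was assumed and not measured, and levels near the detection limit understate differences.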
